A study of Mus musculus with 17 samples.

Results

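A list of 10 genes of the Notch pathway was followed through every library of the study. They were the receptor genes Notch1, Notch2 and Notch3, the ligand genes Jag1, Jag2 and Dll1, the gene of the DNA-binding factor, Rbpj, and the target genes Hes1, Hey1 and Heyl, which made 10 of the 35674 gene symbols measured. Polyadenylated RNA was measured in stem cells that had been sorted from the skin of wild-type mice to ask what fasting does to hair follicle stem cells (HFSCs). The groups were epidermal stem cells (EpiSCs) of ad libitum fed mice (2 libraries), HFSCs in the 2nd telogen (a resting phase of the hair cycle) from mice labelled as controls (2 libraries), and HFSCs of ad libitum fed mice and of mice after 24 h and after 48 h without food (3 libraries each). A separate experiment held HFSCs of mice on alternate-day fasting (ADF) for 6 months, taken the day after a fast, and of mice fed ad libitum for the same 6 months (2 libraries each). The sources used here do not give the strain, the age or the number of mice behind a library. Nor do they say that replicates are different mice, and the p-values therefore cover only how far these samples spread, which may be a technical spread.

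Notch receptors are single-pass membrane proteins that bind Jagged or Delta-like ligands on a neighbouring cell. Binding exposes the receptor to an ADAM protease and then to gamma-secretase, and the released intracellular domain enters the nucleus, where it joins RBPJ and a Mastermind coactivator and turns on genes of the HES and HEY repressor families. In the epidermis the pathway is known for driving basal keratinocytes to commit to differentiation, and in the hair follicle for keeping follicle lineages from turning into epidermis.

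The authors deposited TPM values, that is, transcript levels corrected for length and set to the same total in every library, so levels of different genes can be set side by side. TPM keeps no read counts, and the depth of the libraries is unknown. At 1 TPM or more, libraries held 10422 to 12087 genes. Mitochondrial transcripts took 3.22% of all TPM on average in EpiSCs, 3.46% in telogen HFSCs and 30.7% in ad libitum HFSCs. They took 27.5% at 24 h and 10.02% at 48 h of fasting, 3.39% after ADF and 3.88% in long-term fed HFSCs. Over all genes tested, the median log2 fold change was 0.50 for EpiSCs against HFSCs, 0.42 for 48 h against ad libitum and 0.47 for 48 h against 24 h. For these comparisons the value after median-ratio scaling, which puts that median near 0 (0.06, 0.01 and 0.04), stands beside the log2 fold change from the deposited values. All 8 HFSC markers averaged at least 1 TPM in every HFSC group, against 3 of 8 in EpiSCs, where the bulge genes Lgr5 and Tbx1 were listed at 0. Krt15, by far the most abundant of the 8, did not part the cell types. It averaged 34150 TPM in EpiSCs, against 38030 TPM in ad libitum, 24200 TPM in 24 h and 27900 TPM in 48 h HFSCs. The rest of the list averaged less in EpiSCs than in every HFSC group. The epidermal markers Ly6a and Klf5 summed to 874 to 931 TPM in EpiSCs and to 12 to 21.5 TPM in ad libitum HFSCs. The other HFSC groups held more, with 36.15 to 69.5 TPM at 24 h, 47.8 to 85.6 TPM at 48 h and 46.6 to 50.45 TPM in telogen. ADF libraries held 50.05 to 91.97 TPM and long-term fed ones 56.2 to 57.2 TPM. The telogen and long-term libraries were trimmed with another tool than the rest, which cannot be told apart from their groups, and no library of the long-term table stands in another table, so levels set across these tables are a description. In sorted populations measured in bulk, fewer cells of a type and less RNA per cell cannot be told apart.

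RefSeq (GRCm38.p6) promoter windows, here the 250 bases before the annotated start, were held for 7 of the 10 genes, in 9 windows, since Rbpj and Dll1 have 2 starts each. They are shown because the Notch pathway regulates its own genes, through RBPJ and through HES repressors. The windows were searched on both strands for TGGGAA, the core of the RBPJ site, for CACGCG, the class C site of HES proteins, and for CACNAG, the N-box of HES proteins. No match of one motif overlapped one of another. The windows of Dll1 (2nd start) and Notch3, whose transcripts were both higher in EpiSCs, are given 5′ to 3′ on the gene's strand, with motif matches in capitals.
Dll1 chr17:15376933-15377182, minus strand: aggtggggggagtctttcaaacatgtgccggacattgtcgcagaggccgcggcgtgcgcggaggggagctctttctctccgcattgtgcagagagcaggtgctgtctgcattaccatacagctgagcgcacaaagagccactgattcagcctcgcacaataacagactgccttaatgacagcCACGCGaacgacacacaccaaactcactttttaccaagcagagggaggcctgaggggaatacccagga
Notch3 chr17:32166891-32167140, minus strand: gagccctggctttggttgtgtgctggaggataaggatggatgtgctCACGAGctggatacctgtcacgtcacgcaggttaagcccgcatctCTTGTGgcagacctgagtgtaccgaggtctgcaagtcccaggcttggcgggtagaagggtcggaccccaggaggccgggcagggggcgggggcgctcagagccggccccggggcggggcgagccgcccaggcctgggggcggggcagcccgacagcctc
The capitals in the Dll1 window are a single CACGCG, which begins 68 bases before the start, and those in the Notch3 window are the N-boxes CACGAG and CTTGTG, which begin 204 and 159 bases before it. The Notch3 window overlapped no exon of the GENCODE M21 annotation, and the Dll1 window overlapped an exon of A930024N18Rik, a long noncoding RNA gene on the other strand. In the other windows, Rbpj held TGGGAA and TTCCCA at its first start and TTCCCA at the 2nd, Jag1 held CGCGTG and CACGCG, Notch2 held CACGCG and CTAGTG, and Notch1 held CACAAG. The windows of Jag2 and of the first Dll1 start held no match. Among 32851 windows of the same length, 21.6% held the RBPJ core, 7.62% the class C site and 36.7% the N-box. These are matches of letters, not sites shown to be bound.

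Differences were tested with limma on log2(TPM + 1), a scale on which changes of low genes come out too small, with p-values adjusted over all genes and called at an adjusted p under 0.05. In fed EpiSCs against fed HFSCs, 4 of 9 tested genes were higher and 1 was lower, where 31.5% and 9.10% of all genes tested were called higher and lower (40.6% in all). Of these 5, Notch3 passed the filter on low values only through EpiSCs and Hey1 only through HFSCs, the groups where they were high. The same 5 were called after median-ratio scaling, which called 17.8% of all genes higher and 14.7% lower. All EpiSC values were above all ad libitum HFSC values for 6 of the 9, and below them for 1, as for 50.5% and 16.2% of all genes. In telogen against ad libitum HFSCs, 1 of 8 was higher, where 5.01% of all genes were called higher and 6.10% in all, and 2 of 8 after median-ratio scaling (5.77% of all genes higher). After 48 h against ad libitum, 1 of 8 was higher, where 13.3% of all genes were called higher and 1.98% lower (15.3% in all), and 0 of 8 after median-ratio scaling (5.43% of all genes higher and 4.88% lower). None of 8 was called at 24 h against ad libitum (3.07% of all genes), at 48 h against 24 h (0.0434%) or after 6 months of ADF against ad libitum (0.00822%). At an unadjusted p under 0.05 there were 7 of 9 in EpiSCs (50.5% of all genes), 2 of 8 in telogen (16.4%), 2 of 8 at 48 h against ad libitum (31.1%), 2 of 8 at 48 h against 24 h (21.3%), 0 of 8 at 24 h (17.1%) and 0 of 8 after ADF (14.1%). The Notch genes thus met the threshold mainly between the 2 cell types, a comparison in which 40.6% of all genes did so. The median log2 fold change of the tested members was 1.28 in EpiSCs against 0.50 for all genes (0.80 against 0.06 after scaling), and 0.41 at 48 h against ad libitum, close to the 0.42 of all genes (-0.03 against 0.01 after scaling). Heyl was listed at 0 in all but 2 libraries and Notch3 was under the mean of 1 TPM required for a test in every comparison but that of EpiSCs. With no filter on low values, neither was called in any comparison among HFSCs in which it could be tested (adjusted p from 0.441 to 0.763 for Notch3, and 0.756 for Heyl after ADF).

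**Figure D1:**
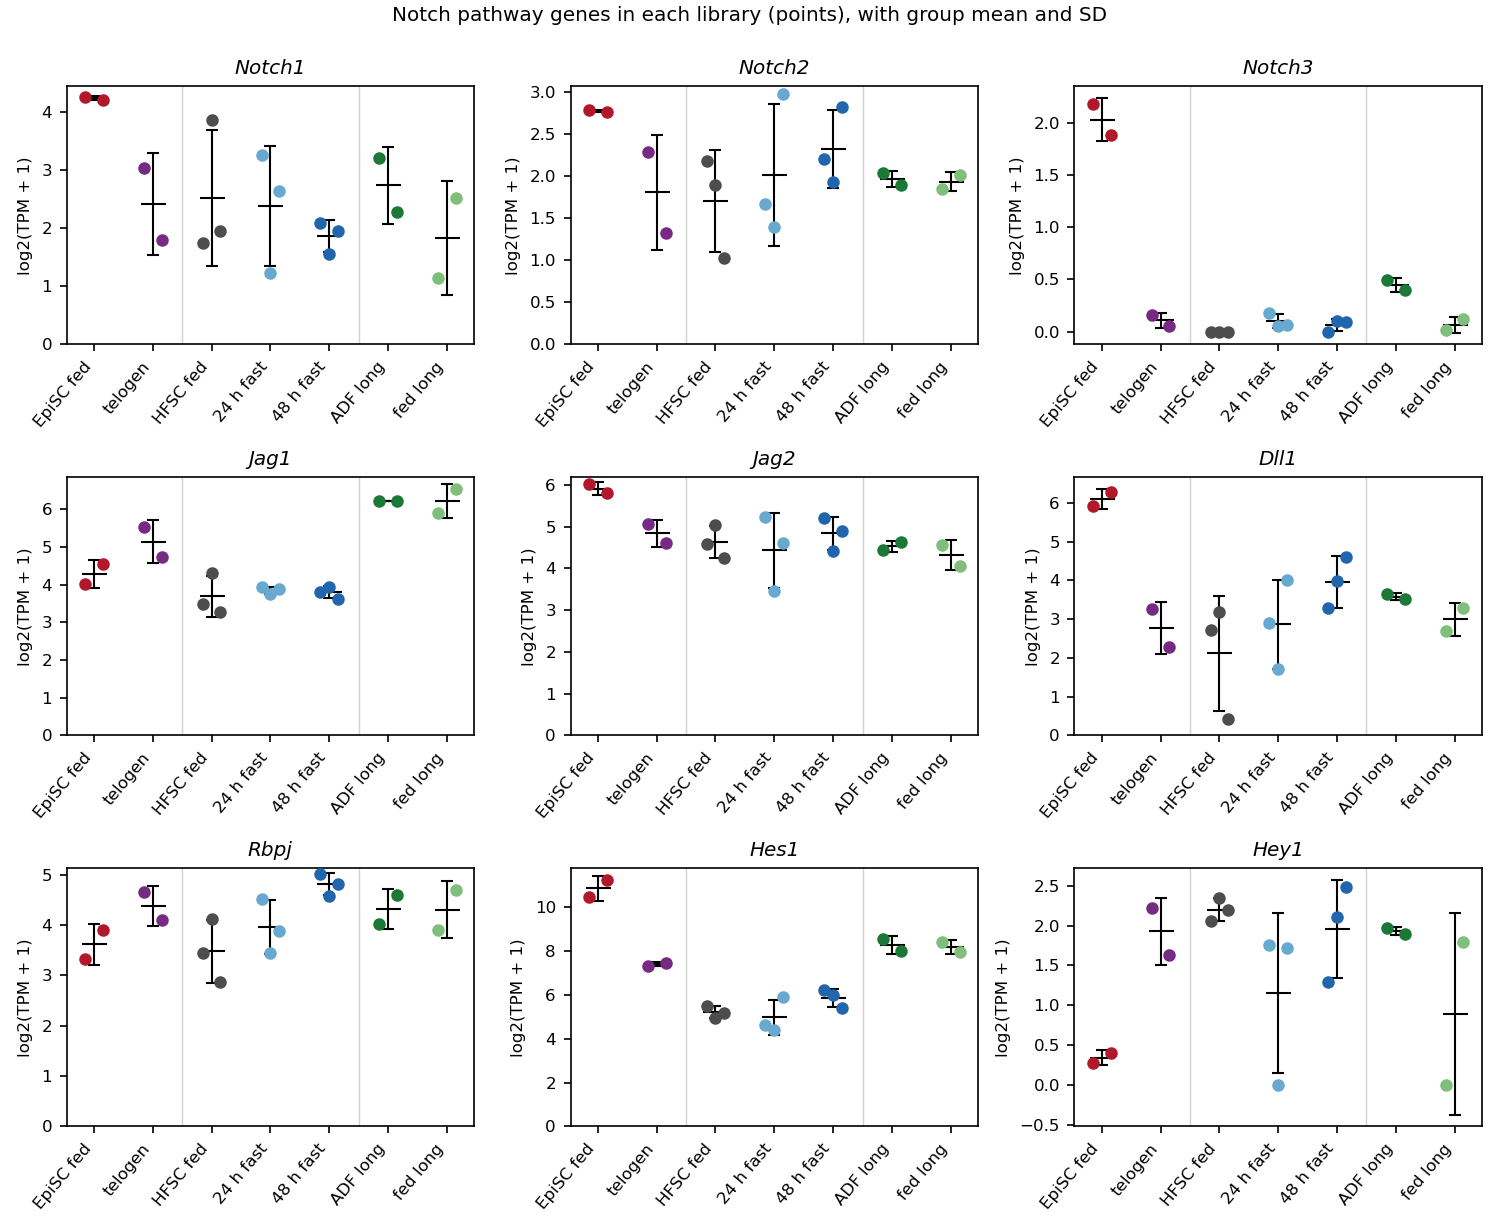
Level of 9 Notch pathway genes, as log2(TPM + 1), in each of 17 libraries (points), with the mean and SD of each group (bars). The Hes1 panel steps down from EpiSCs (1391 and 2427 TPM) to the long-term, telogen and short-experiment HFSCs, while Rbpj runs from 6.28 to 31.3 TPM. Each panel has its own vertical scale. Grey lines part the short fasting series from the groups before and after it, and levels across the tables are a description.

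Among the receptors, Notch1, the main receptor of the epidermis (chr2:26457903-26516663, minus strand, GRCm38), was the most abundant in EpiSCs. Its level was 18.3 and 17.6 TPM in the EpiSC libraries, against 2.38, 13.6 and 2.87 TPM in ad libitum HFSCs. Both EpiSC libraries were above all 3 HFSC libraries, of which the 2nd stood well above the other two. Its log2 fold change of 1.72 (SE 0.615, 95% interval 0.31 to 3.13) was not called (adjusted p = 0.0537), and it was 1.30 after median-ratio scaling (adjusted p = 0.101). Without ad libitum library 2 it was 2.39 and was called (adjusted p = 0.00226). Fasted HFSCs held 8.58, 1.362 and 5.23 TPM at 24 h and 3.26, 1.96 and 2.90 TPM at 48 h. The 48 h libraries lay closer together than those of the other 2 times, and all 3 times overlapped. The log2 fold change against ad libitum was -0.14 (95% interval -1.45 to 1.16) at 24 h and -0.65 (-1.95 to 0.65) at 48 h, or -0.98 after scaling (adjusted p = 0.284). Telogen HFSCs held 7.23 and 2.49 TPM. ADF libraries held 8.26 and 3.84 TPM, against 1.21 and 4.79 TPM with ad libitum food for 6 months, and these ranges overlapped (0.90, SE 0.645, adjusted p = 0.531).

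Notch2, a second receptor of the epidermis and follicle (chr3:98013527-98150361, plus strand), was low in every group. It was at 5.88 and 5.79 TPM in EpiSCs, against 3.54, 2.73 and 1.03 TPM in ad libitum HFSCs. The groups did not overlap, but the difference of 1.07 (SE 0.453, adjusted p = 0.0902) was not called, and it was 0.69 after scaling (adjusted p = 0.266). Over the other HFSC groups Notch2 ran from 1.501 TPM in a telogen library to 6.84 TPM in a 24 h library, and its log2 fold change was 0.31 at 24 h, 0.62 at 48 h (0.26 after scaling), 0.03 after ADF and 0.34 in telogen, none of them called. Neighbouring groups in the order of mean Notch2 levels all overlapped.

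Notch3, which is best known as the receptor of vascular mural cells and is also made by keratinocytes (chr17:32120820-32166852, minus strand), was found in EpiSCs and hardly in HFSCs. It was at 3.52 and 2.68 TPM in the EpiSC libraries and was listed at 0 in all 3 ad libitum HFSC libraries. It entered the test only through its level in EpiSCs, so the adjusted p of 0.00345 (0.00846 after median-ratio scaling) describes these values, and no fold is given against values of 0. Of 18 housekeeping genes, 0 were listed at 0 in any library. Fasted HFSCs held 0.131, 0.0388 and 0.0465 TPM at 24 h and 0, 0.0712 and 0.0655 TPM at 48 h, and telogen libraries held 0.118 and 0.042 TPM. ADF libraries held 0.409 and 0.316 TPM, against 0.00937 and 0.0873 TPM in long-term fed HFSCs, so that these groups did not overlap. Of all genes tested after ADF, which Notch3 was not, 29.6% were higher with no overlap. With no filter on low values the Notch3 difference was not called (adjusted p = 0.441). The 8 mural cell markers summed to 19.96 to 20.6 TPM after ADF and to 9.62 to 22.3 TPM in long-term fed HFSCs, with 0 and 4 of the 8 (Pdgfrb, Kcnj8, Des and Myh11) at 0 in all libraries, and the 8 endothelial markers to 18.01 to 19.4 and 5.60 to 11.6 TPM, with 0 and 3 of the 8 (Cdh5, Kdr and Cldn5) at 0. Their part in the Notch3 level was not tested. Cspg4 made up most of the mural sums of HFSCs. Egfl7 made up most of the endothelial sums of the long-term groups, at 16.25 TPM on average after ADF and 6.105 TPM with ad libitum food. Pecam1 (1.058 and 1.845 TPM) and Emcn (0.1135 and 0.2676 TPM) were lower after ADF. The rest of the endothelial list, each under 1 TPM on average, was higher. In EpiSCs, where Notch3 was highest, the mural markers summed to 2.94 to 3.38 TPM, mainly Acta2 (1.88 TPM on average, against 0.485 TPM in ad libitum HFSCs) and Cspg4 (1.25 against 25.0 TPM), and 5 of the 8 were listed at 0 in each of these groups.

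As shares of the summed receptor TPM of a library, Notch3 made up 10.3% and 12.7% in EpiSCs and at most 4.60% in any HFSC library. Notch1 and Notch2 took the rest in proportions that varied widely among HFSC libraries. Notch1 took 66.1% and 67.5% in EpiSCs, 40.2% to 83.3% in ad libitum HFSCs, 43.2% to 78.9% at 24 h and 32.1% to 47.4% at 48 h. The sum of the 3 receptors was 26.1 to 27.7 TPM in EpiSCs and 3.90 to 16.3 TPM in ad libitum HFSCs.

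**Figure D2:**
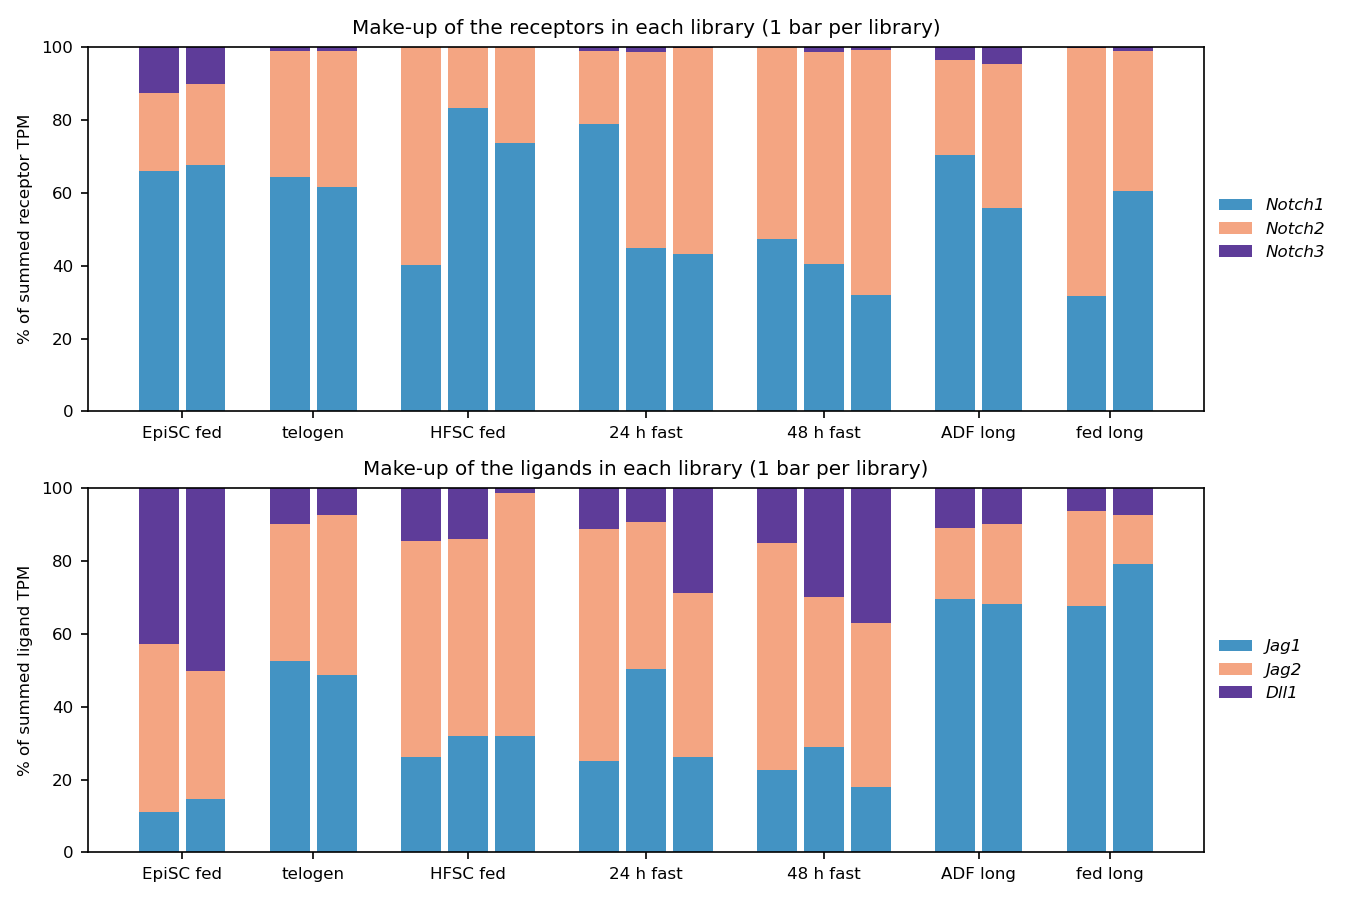
Share of the summed TPM of 3 receptor genes (top) and 3 ligand genes (bottom) taken by each gene, in percent, with 1 bar per library, grouped by condition. Dll1 takes 42.9% and 50.1% of the ligands in EpiSCs, and Jag1 takes 67.6% to 79.1% in the long-term HFSC libraries.

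Of the ligands, Dll1, a Delta-like ligand that in human epidermis marks clusters of stem cells (chr17:15367354-15376872, minus strand), differed most between the cell types. It was at 59.3 and 77.5 TPM in EpiSCs, against 5.65, 8.15 and 0.352 TPM in ad libitum HFSCs. The groups were far apart, and the 3rd HFSC library was far below the other two. The ratio of the means was 14.5 (68.4 ± 12.9 TPM, SD, n = 2, against 4.72 ± 3.98 TPM, SD, n = 3), and the log2 fold change was 3.98 (SE 0.728, adjusted p = 0.00367), or 3.58 after scaling (adjusted p = 0.00782). The call was lost without EpiSC library 1 (adjusted p = 0.0798) or 2 (0.0756), at log2 fold changes of 4.17 and 3.79. Dll1 was the only one of the 3 ligands for which all 48 h libraries were above all ad libitum libraries. HFSCs held 6.44, 2.28 and 15.1 TPM at 24 h and 8.73, 14.9 and 23.4 TPM at 48 h. The lowest 48 h library lay just above the highest ad libitum library, and 35.5% of all genes tested likewise had all 48 h values above all ad libitum values. The difference of 1.84 at 48 h (SE 0.687, 95% interval 0.38 to 3.30) was not called (adjusted p = 0.0819), and it was 1.46 after scaling (adjusted p = 0.180). It passed without ad libitum library 2 (2.38, adjusted p = 0.0388) and without 24 h library 2 (adjusted p = 0.0489). At 24 h the difference was 0.75 (95% interval -0.71 to 2.21, adjusted p = 0.639). ADF libraries held 11.5 and 10.54 TPM, against 5.50 and 8.81 TPM in long-term fed HFSCs, a difference of 0.59 (SE 0.394, adjusted p = 0.512). Those groups did not overlap, as for 29.6% of all genes higher after ADF. Telogen HFSCs held 8.55 and 3.89 TPM.

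Jag2, a Jagged ligand of basal epidermal cells (chr12:112907819-112929776, minus strand), was also higher in EpiSCs. Its level was 63.6 and 54.6 TPM there, against 23.2, 31.8 and 18.1 TPM in ad libitum HFSCs, with no overlap. On the log2 scale the difference was 1.28 (SE 0.282, adjusted p = 0.00846), or 0.80 after median-ratio scaling (adjusted p = 0.0343). It was not called after quantile normalization (0.68, adjusted p = 0.0537) or without EpiSC library 1 (adjusted p = 0.133) or 2 (0.0845). Among HFSCs, the group means of Jag2 were the closest together of the 3 ligands. It was at 36.3, 9.92 and 23.6 TPM at 24 h, at 36.2, 20.4 and 28.6 TPM at 48 h, at 32.7 and 23.5 TPM in telogen, at 20.7 and 23.7 TPM after ADF and at 22.7 and 15.7 TPM in long-term fed HFSCs. All these ranges overlapped that of ad libitum HFSCs. The log2 fold change was -0.20 (95% interval -1.08 to 0.67) at 24 h and 0.21 (-0.66 to 1.09) at 48 h, a sign that turned to -0.24 after scaling.

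Jag1, the Jagged ligand with a long-known role in the hair follicle (chr2:137081456-137116644, minus strand), had its highest levels in the telogen and long-term HFSCs. It was at 15.3 and 22.5 TPM in EpiSCs, against 10.3, 18.9 and 8.66 TPM in ad libitum HFSCs. These groups overlapped, and the difference of 0.60 (SE 0.39, adjusted p = 0.248) was not called. It was 0.14 after median-ratio scaling (adjusted p = 0.763) and 0.91 without ad libitum library 2 (adjusted p = 0.0496). Telogen HFSCs held 45.5 and 25.9 TPM, above the ad libitum libraries. The log2 fold change against ad libitum libraries 2 and 3, the pair in the telogen table, was 1.35 (SE 0.491, adjusted p = 0.115) on the deposited values and 1.37 after median-ratio scaling, where it was called (adjusted p = 0.0396). Of all genes tested, 24.4% had both telogen values above both ad libitum values. In fasted HFSCs Jag1 was at 14.3, 12.4 and 13.7 TPM at 24 h and 13.05, 14.4 and 11.4 TPM at 48 h. These values all lay within the range of ad libitum HFSCs, and the log2 fold change was 0.16 (95% interval -0.61 to 0.92) at 24 h and 0.10 (-0.66 to 0.87) at 48 h, or -0.33 after scaling. The long-term libraries held the highest levels, 73.5 and 73.5 TPM after ADF, against 58.8 and 92.6 TPM with ad libitum food. The ADF values lay between those of the 2 fed libraries, and the difference was -0.01 (95% interval -0.65 to 0.64, adjusted p = 0.983).

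The make-up of the ligands differed accordingly, as the plot of receptor and ligand shares shows. Dll1 took 42.9% and 50.1% of the summed ligand TPM in EpiSCs, 7.31% and 9.85% in telogen, 1.30% to 14.5% in ad libitum HFSCs, 9.28% to 28.8% at 24 h and 15.1% to 36.9% at 48 h. Jag2 was the largest ligand in all 3 ad libitum HFSC libraries, at 54.1% to 66.8%. Jag1 took 11.1% and 14.5% in EpiSCs, 48.6% and 52.5% in telogen and 26.3% to 32.0% in ad libitum HFSCs, and it reached 68.3% and 69.6% after ADF, against 67.6% and 79.1% in long-term fed HFSCs.

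Rbpj, which encodes the DNA-binding factor through which all Notch receptors act (chr5:53466152-53657362, plus strand), was the one member called in a fasting comparison. It was at 9.85, 16.4 and 6.28 TPM in ad libitum HFSCs, at 21.97, 9.95 and 13.8 TPM at 24 h and at 31.3, 22.9 and 27.3 TPM at 48 h. All 3 libraries at 48 h were above all libraries of the other 2 times, as for 35.5% of all genes higher at 48 h than in ad libitum HFSCs and 25.3% higher than at 24 h. Rbpj averaged 27.2 ± 4.20 TPM at 48 h and 10.9 ± 5.15 TPM in ad libitum HFSCs (SD, n = 3 each), or 1.33 higher on the log2 scale (SE 0.391, adjusted p = 0.0330). After median-ratio scaling the difference was 0.88 and was not called (adjusted p = 0.0983). The call was also lost without ad libitum library 1 (adjusted p = 0.0977) or 3 (0.144), or without any of the 48 h libraries (0.113, 0.0753 and 0.104). The mitochondrial share of TPM moved with these groups, at 10.02% ± 2.88 at 48 h and 30.7% ± 4.57 in ad libitum HFSCs (SD, n = 3 each), and without mitochondrial and ribosomal protein genes the Rbpj difference was 0.99 (adjusted p = 0.0999). The log2 fold change at 24 h was 0.48 (95% interval -0.35 to 1.31, adjusted p = 0.592), and that of 48 h against 24 h was 0.85 (SE 0.391, adjusted p = 0.225), or 0.40 after scaling. Between the cell types Rbpj was not called. It was at 9.02 and 14 TPM in EpiSCs, within the range of ad libitum HFSCs, and the difference of 0.14 (95% interval -0.86 to 1.14) turned to -0.30 after scaling. Telogen libraries held 24.2 and 16.0 TPM (0.88, adjusted p = 0.469). ADF libraries held 15.3 and 23.2 TPM, against 13.9 and 25.0 TPM in long-term fed HFSCs (0.01, 95% interval -0.91 to 0.93).

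Hes1, a transcriptional repressor and the classical Notch target (chr16:30064384-30067796, plus strand), reached the highest TPM of the 10 genes. It was at 1391 and 2427 TPM in EpiSCs, against 44, 29.8 and 35.3 TPM in ad libitum HFSCs. The ratio of the means was 52.5 (1909 ± 732 TPM, SD, n = 2, against 36.4 ± 7.17 TPM, SD, n = 3). On the log2 scale Hes1 was higher by 5.64 (SE 0.263, adjusted p = 4.74e-06), or by 5.15 (adjusted p = 2.92e-05) with scaling. The difference ranked 54 in size among the 11774 genes tested. Hes1 lay above 99.6% of the genes with a value above 0 in EpiSCs and above 83.3% in ad libitum HFSCs. The Hes1 call was kept without any single library of the comparison, with adjusted p-values of at most 0.00184. The 7 suprabasal keratinocyte markers summed to 6438 to 7234 TPM in EpiSCs and to 1315 to 3091 TPM in ad libitum HFSCs, and the 5 basal markers to 26680 to 29910 and 5686 to 8601 TPM. The suprabasal sums were mostly Krtdap, Krt10 and Krt1, while Sbsn (121 and 323 TPM on average), Ivl (2.15 and 6.76), Lor (8.49 and 36.9) and Flg (0.0828 and 1.69) were lower in EpiSCs than in ad libitum HFSCs. Their part in the Hes1 level was not tested.

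Within HFSCs, Hes1 was the one member called in telogen. Telogen libraries held 159 and 176 TPM, against 29.8 and 35.3 TPM in the 2 ad libitum libraries of their table, a ratio of means of 5.15. The headers of that table mark the ad libitum columns ana1 and the telogen columns telo.2nd, so the groups differ in this label as well. Its log2 fold change was 2.33 (SE 0.351, adjusted p = 3.73e-05), and it was 2.34 after scaling (adjusted p = 0.000477). The call was lost with no filter on low values (adjusted p = 0.0846), where 4 of all genes were called, against 709 with the filter. Without either telogen library, which leaves a single one, the log2 fold change was 2.40 and 2.26. The mitochondrial share was 3.46% ± 0.0531 in telogen (SD, n = 2) and 25.4% to 33.9% in ad libitum HFSCs. The 8 immune markers summed to 46.3 to 50.4 TPM in telogen and 8.42 to 12.4 TPM in ad libitum HFSCs, with 2 and 3 of the 8 at 0 in all libraries (Ptprc and Cd3e, against Ptprc, Cd207 and Cd3e), and the 5 sebocyte markers to 173 to 176 and 43.9 to 73.8 TPM, with Pparg at 0 in ad libitum HFSCs. The ad libitum values of the mitochondrial share and of these sums cover all 3 libraries, not only the pair compared with telogen. Most of the immune sum was Cd74, at 34 TPM on average in telogen and 6.12 TPM in ad libitum HFSCs. Most of the sebocyte sum was Mgst1, at 161 TPM on average in telogen and 50.6 TPM in ad libitum HFSCs, and Fasn was at 5.76 and 5.38 TPM. Against all 3 ad libitum libraries, the 5 basal markers summed to 9339 to 11620 and 5686 to 8601 TPM, with Krt14 higher in telogen and Krt5 and Trp63 lower on average. The 7 fibroblast markers summed to 38.1 to 42.7 and 10.75 to 22.7 TPM, with Dcn higher and Col1a1 lower. Ly6a and Klf5 summed to 46.6 to 50.45 and 12 to 21.5 TPM, with Klf5 higher and Ly6a lower. The sums of the remaining marker lists overlapped. The part of these lists in the Hes1 difference was not tested. The long-term libraries held still more, 373 and 249.9 TPM after ADF, against 339.7 and 245 TPM with ad libitum food. These ranges overlapped, and the difference was 0.08 (95% interval -0.57 to 0.73, adjusted p = 0.897).

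Fasting gave no call for Hes1. It was at 23.8, 19.9 and 58.4 TPM at 24 h and at 72.6, 61.6 and 40.7 TPM at 48 h. The 24 h library 3 stood above the other two, and all 3 times overlapped. Against ad libitum, the log2 fold change was -0.24 (95% interval -1.02 to 0.55) at 24 h and 0.64 (-0.14 to 1.43, adjusted p = 0.248) at 48 h, or 0.18 after scaling. At 48 h against 24 h it was 0.88 (SE 0.368, adjusted p = 0.202), or 0.42 after scaling, and it passed without 24 h library 3 (1.34, adjusted p = 0.0434).

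**Figure D3:**
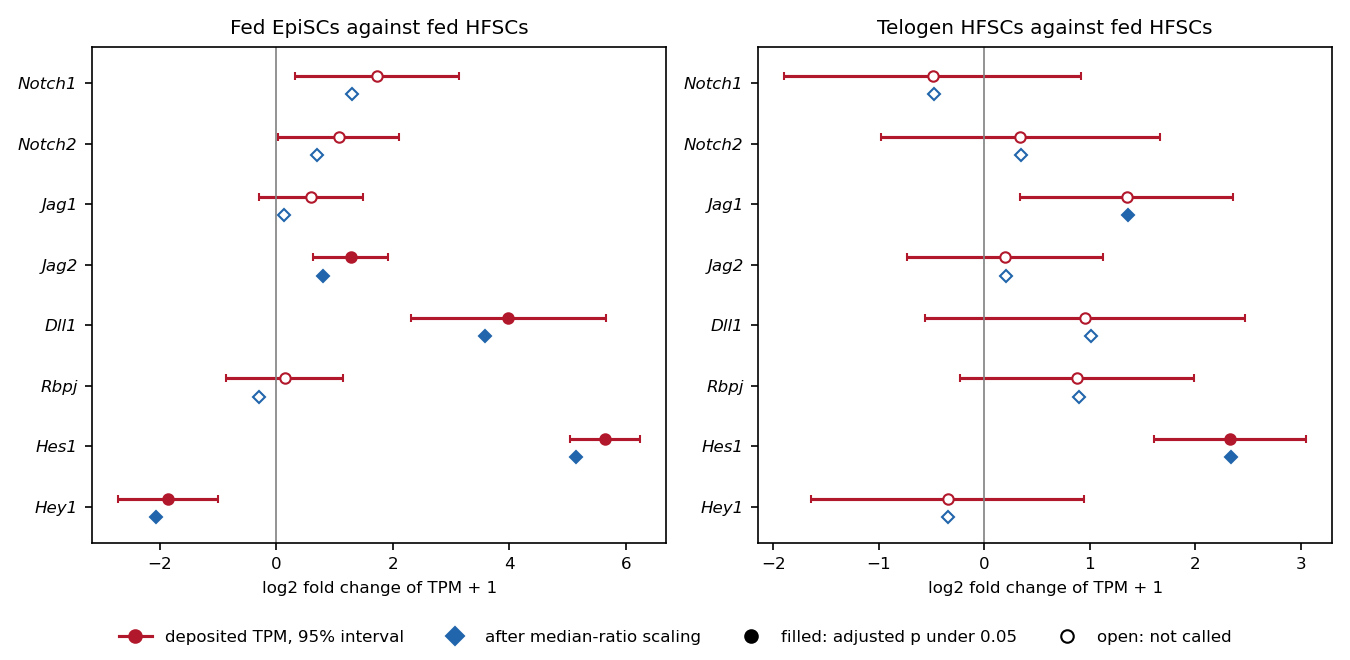
Log2 fold change of TPM + 1 for 8 tested genes in fed EpiSCs against fed HFSCs (left) and in telogen against ad libitum HFSCs (right), with the 95% interval of the deposited values (circles) and the value after median-ratio scaling (diamonds). Filled symbols passed an adjusted p of 0.05. Hes1 is far to the right in both panels, at 5.64 and 2.33, and Notch3 is left out because ad libitum HFSCs were listed at 0.

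Hey1, a target that encodes a repressor related to the HES proteins (chr3:8663359-8667256, minus strand), went the other way between the cell types. It was at 0.211 and 0.327 TPM in EpiSCs, against 3.15, 4.09 and 3.60 TPM in ad libitum HFSCs. It was lower in EpiSCs, at -1.86 on the log2 scale (SE 0.373, adjusted p = 0.00558) and -2.07 after scaling (adjusted p = 0.00338). The call was lost without EpiSC library 1 (adjusted p = 0.0800) or 2 (0.0756). It entered that test only through its level in HFSCs. Fasted HFSCs held 2.37, 0 and 2.28 TPM at 24 h and 1.44, 3.32 and 4.60 TPM at 48 h. All 24 h values were under all ad libitum values, as for 10.1% of all genes, but the difference of -1.05 (SE 0.541, adjusted p = 0.344) was not called. At 48 h it was -0.24 (95% interval -1.39 to 0.91), or -0.59 after scaling. ADF libraries held 2.91 and 2.72 TPM, against 0 and 2.46 TPM in long-term fed HFSCs (1.04, SE 0.753, adjusted p = 0.535), and telogen libraries held 3.67 and 2.10 TPM. Heyl, another member of the HEY family (chr4:123233556-123249875, plus strand), was at 0.122 TPM in 1 ADF library and 0.339 TPM in 1 long-term fed library and was listed at 0 in all others.

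**Figure D4:**
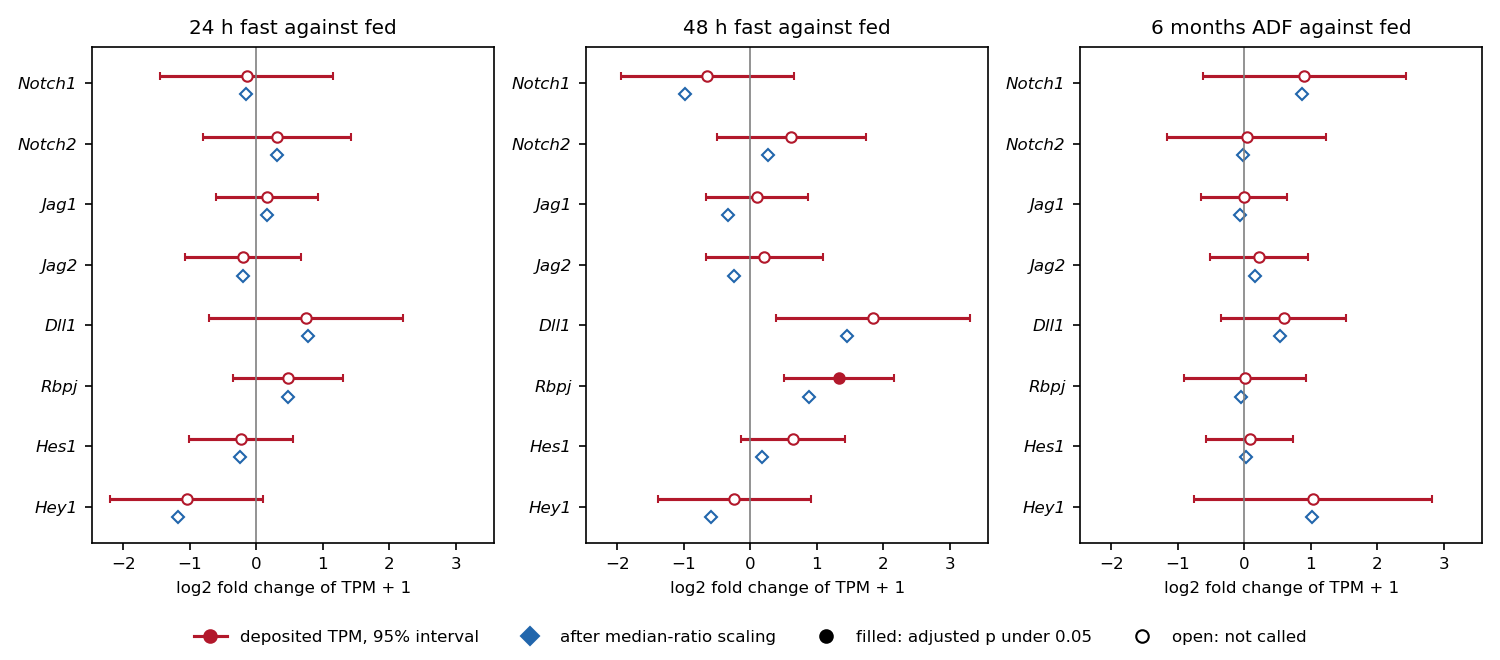
Log2 fold change of TPM + 1 for 8 tested genes in HFSCs after 24 h of fasting (left), after 48 h of fasting (middle) and after 6 months of ADF (right), each against ad libitum HFSCs of the same experiment. Circles with 95% intervals are the deposited values and diamonds those after median-ratio scaling, and the filled circle of Rbpj at 48 h (1.33) is the one value that passed an adjusted p of 0.05.

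For the rest of the pathway, a list of 63 further genes in 8 roles was used. In EpiSCs against HFSCs, 22 of 51 tested genes were higher and 6 lower (18 and 6 after scaling), with a median of 0.86 against 0.50 for all genes (0.37 against 0.06 after scaling). Of all genes tested, 31.5% were called higher and 9.10% lower, or 17.8% and 14.7% after scaling, and the counts by role stand against these shares. Proteins that cleave the receptor had 7 of 10 genes higher and 0 lower, with a median of 1.75, and 6 higher after scaling, with a median of 1.28. Adam10, the protease of the first ligand-induced cut, was at 19.3 and 25.2 TPM in EpiSCs, against 3.91, 3.74 and 2.22 TPM in ad libitum HFSCs (2.46, SE 0.375, adjusted p = 0.00159, 2.02 after scaling). Both EpiSC libraries were above all HFSC libraries, and the Adam10 call was lost without EpiSC library 2 (adjusted p = 0.0586). The related protease gene Adam17 (1.76, 1.30 after scaling) and the gamma-secretase genes Aph1a and Aph1c (2.24, 1.80 after scaling) were also higher, and each of these 3 calls was lost without either EpiSC library (adjusted p from 0.0532 to 0.0850). Mouse Aph1b and Aph1c are near-identical copies whose reads the counting could split, so each is uncertain.

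Feedback and ligand-like genes gave the widest differences of the list. Nrarp, a Notch-induced protein that dampens the receptor's nuclear complex, was at 103 and 164 TPM in EpiSCs, against 11.6, 11.5 and 14.9 TPM in HFSCs (3.27, SE 0.279, adjusted p = 8.72e-05, 2.80 after scaling). Dlk2, a Delta-like protein that lacks the domain for activating Notch, was at 196 and 158 TPM, against 5.38, 15.5 and 11.8 TPM (4.004, SE 0.392, adjusted p = 0.000172, 3.53 after scaling). Its relative Dlk1 was listed at 0 in both EpiSC libraries and was at 7.74, 8.08 and 23.8 TPM in HFSCs, a gene called lower (adjusted p = 0.00120) with no fold given. Dlk1 entered that test only through its level in HFSCs. Hes5 and Hey2, 2 further targets, were listed at 0 in all EpiSC and ad libitum HFSC libraries, and the ligand gene Dll4 was at most 0.0889 TPM there. Of the genes whose enzymes add sugars to the receptor, 1 of 4 tested was higher, the Fringe gene Rfng (adjusted p = 0.0101), a call lost without either EpiSC library (adjusted p = 0.107 and 0.140), and of the genes of ligand endocytosis 0 of 3.

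Nuclear partners moved in both directions. Of 13 corepressor genes 6 were higher and 2 lower in EpiSCs (4 and 2 after scaling). Ctbp1 was at 223 and 259 TPM in EpiSCs, against 45.1, 45.0 and 20.2 TPM in HFSCs (2.76, SE 0.341, adjusted p = 0.000563, 2.28 after scaling). Tle2, a Groucho-family corepressor, was at 3.30 and 3.83 TPM, against 9.76, 18.9 and 28.0 TPM, and was lower (-2.01, SE 0.452, adjusted p = 0.00904, -2.42 after scaling), a call lost without either EpiSC library (adjusted p = 0.125 and 0.0922). Of 8 coactivator genes 2 were higher and 1 lower (1 and 1 after scaling), with Maml1, a Mastermind coactivator, at 2.10 (1.78 after scaling). The gene called lower in trafficking and turnover was Dtx3, a Deltex ubiquitin ligase, at 8.81 and 9.98 TPM, against 14.4, 49.97 and 31.0 TPM (-1.49, SE 0.47, adjusted p = 0.0347, -1.95 after scaling), a call lost without any one of 4 libraries (adjusted p from 0.0638 to 0.234). Of 9 tested genes of that role 4 were higher and 1 lower under both scalings, the higher ones including Fbxw7, a ubiquitin ligase subunit that marks the intracellular domain for breakdown (2.60, 2.19 after scaling). The calls of Maml1 and Fbxw7 were lost without either EpiSC library (adjusted p from 0.0653 to 0.103).

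**Figure D5:**
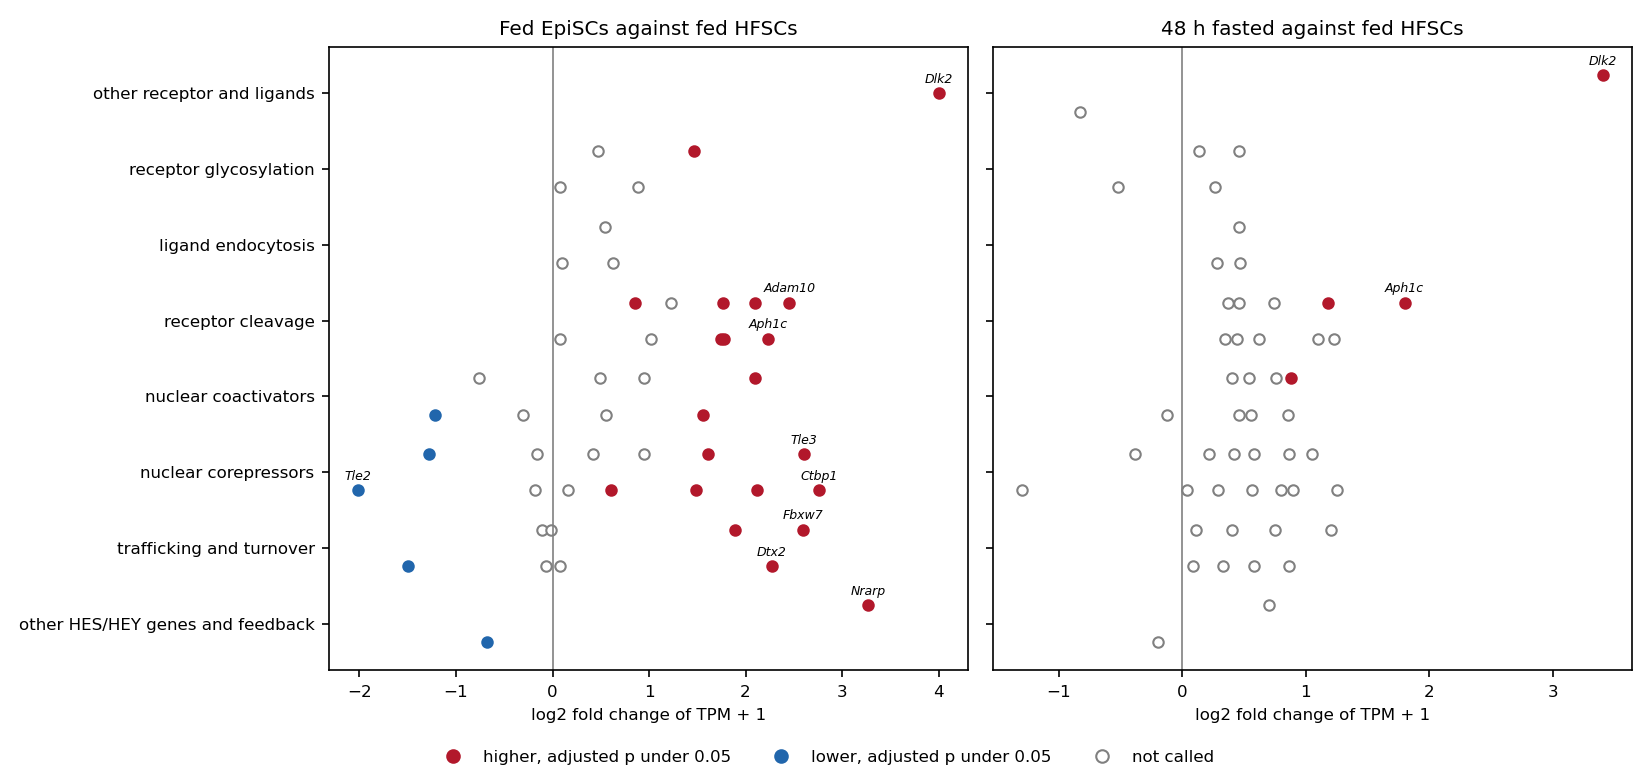
Log2 fold change of TPM + 1 for further Notch pathway genes by role, in fed EpiSCs against fed HFSCs (left) and in 48 h fasted against fed HFSCs (right), on the deposited values. Each point is 1 tested gene, filled where the adjusted p was under 0.05, with the farthest named. Dlk2 is at 4.004 on the left and at 3.41 on the right, and Dlk1 and Dtx4 are left out on the left because 1 group was listed at 0.

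In the fasting comparisons Dlk2 stood out among these genes. It was at 5.38, 15.5 and 11.8 TPM in ad libitum HFSCs, at 137, 74.6 and 105 TPM at 24 h and at 91.9, 92.7 and 183 TPM at 48 h. All 6 fasted libraries were far above all 3 fed ones, where 35.5% of all genes had all 48 h values above all ad libitum values. The ratio of means was 9.68 at 24 h and 11.3 at 48 h, and the log2 fold changes were 3.23 (SE 0.373, adjusted p = 0.000386, 3.24 after scaling) and 3.41 (SE 0.373, adjusted p = 5.23e-05, 2.95 after scaling). These comparisons share the ad libitum libraries. Dlk2 was the 1 gene of 50 tested that was called at 24 h (3.07% of all genes). After ADF it was at 29.1 and 19.7 TPM, against 12.1 and 14.6 TPM in long-term fed HFSCs. These did not overlap, as for 29.6% of all genes higher after ADF, and Dlk2 was not called (0.80, SE 0.329, adjusted p = 0.348). Telogen libraries held 21.8 and 20.2 TPM.

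At 48 h 4 of 50 genes were higher and 0 lower, fewer than the 13.3% of all genes called higher would give, with a median of 0.46 against 0.42 for all genes (0.09 against 0.01 after scaling). Beside Dlk2 they included Aph1c (1.80, adjusted p = 0.00947), uncertain as above, and Snw1, a partner of the RBPJ complex (0.88, adjusted p = 0.0250). After median-ratio scaling 1 of 50 was higher, which was Dlk2, and 1 lower, while Aph1c (1.38, adjusted p = 0.0515) and Snw1 (0.41, adjusted p = 0.233) were not called. The Aph1c call was also lost without 48 h library 2 or 3 (adjusted p = 0.0537 and 0.0613), and that of Snw1 without any 48 h library or ad libitum library 1 or 3 (adjusted p from 0.0617 to 0.115). At 48 h against 24 h 0 of 50 were called (7 at an unadjusted p under 0.05, where 21.3% of all genes were), and after ADF 0 of 49 (8 at an unadjusted p under 0.05, against 14.1% of all genes).

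In telogen 2 of 49 genes were higher, a share near the 5.01% of all genes. They were the corepressor genes Ctbp1 and Ncor1. Ctbp1 was at 198 and 135 TPM in telogen, against 45.0 and 20.2 TPM in the ad libitum libraries of the table (2.40, SE 0.39, adjusted p = 0.000112). Ncor1 was at 90.4 and 45.0 TPM, against 22.7 and 14.7 TPM (1.75, SE 0.436, adjusted p = 0.0112). Both pairs did not overlap, as for 24.4% of all genes, higher in telogen. Both calls were lost with no filter on low values (adjusted p = 0.202 and 0.285), where 4 of all genes were called. That of Ncor1 was also lost without mitochondrial and ribosomal protein genes (0.0669). Without either telogen library, which leaves a single one, the log2 fold change was 2.12 and 2.67 for Ctbp1 and 1.26 and 2.25 for Ncor1. It was 1.45 for Ncor1 without ad libitum library 3, which also leaves a single one. Nrarp was not called (0.40, SE 0.511, adjusted p = 0.801), with 22.7 and 13.5 TPM in telogen, against 11.5 and 14.9 TPM.

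Over the 11 libraries of the short experiment, the genes most like Notch1, Jag1 and Hes1 in log2(TPM + 1) were sought among 8805 genes with a mean of at least 5 TPM, by Pearson's r as a description. The cell types and the shift in mitochondrial share are common to all genes of these libraries, and their part in r was not tested. For Hes1 they were Cyp2w1 (r = 0.987), Cebpb (0.983) and Clip4 (0.983), of which Cebpb encodes a transcription factor of keratinocytes. Cyp2w1 averaged 0.192 TPM in ad libitum HFSCs and 41.9 TPM in EpiSCs, and Cebpb 2.7 and 411 TPM. Both passed the mean of at least 5 TPM only through EpiSCs, so their r describes that difference. For Notch1 they were Pgm1 (0.930), Tnks1bp1 (0.929) and Hnrnpul1 (0.928), and for Jag1 they were Epb41l3 (0.896), Nin (0.894) and Def8 (0.890).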

How the data were processed

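Sample titles set the groups. For the ADF libraries, titled as alternate-day fasting, the field on treatment says ad libitum, and here the title decided. The telogen table also held 2 ad libitum columns that matched ad libitum libraries 2 and 3 for 35674 of 35674 symbols within 1e-06 TPM and were counted once. Which of its telogen columns belongs to which telogen sample is not told by their names.

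The deposited values were TPM, computed by the authors for 35674 gene symbols. The submitters' processing notes name the mm10 build, DESeq2 1.36.0 and Salmon 1.4.0, with fastp 0.23.1 for the short experiment and Trimmomatic 0.39 for the others, and give no role or order. Since TPM holds no counts, no count test or counting interval was used, and the precision rests on the spread between libraries.

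Differences were tested within a table on log2(TPM + 1) with limma 3.58.1 (R 4.3.3), with empirical Bayes moderation and a mean-variance trend, two-sided, for genes with a mean of at least 1 TPM over the libraries of the fit. Benjamini-Hochberg adjustment ran over all genes of a test. A single fit held all 9 HFSC libraries of the short experiment. EpiSCs were compared with HFSCs in 5 libraries, and ADF and telogen in 4 each. The code was tested on simulated data. Alternatives were median-ratio scaling, quantile normalization, leaving out mitochondrial and ribosomal protein genes, a pseudocount of 0.1, no filter, a mean of at least 5 TPM, only the 2 groups compared, a replicate block (from the titles and, added after seeing the data, from the descriptions for EpiSCs) and leaving out each library. The members and lists were chosen with earlier results of these data known. Named genes were all 10 members, up to 3 of the other list with the highest and 3 with the lowest fold changes among those called in a comparison, and the 3 genes most like each of Notch1, Jag1 and Hes1. Adam10, Adam17, Aph1a, Aph1c, Maml1 and Fbxw7 in EpiSCs, Nrarp in telogen, Dlk2 after ADF and in telogen, Hes5, Hey2 and Dll4 were named for their roles after their values were seen. Some genes of the list are counted but not reported here by name. Coordinates are those of GENCODE M21 (GRCm38), which held all 73 genes sought, and promoter windows are those of RefSeq (GRCm38.p6).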

Additional observations from a re-analysis of the deposited data

How the results depend on the processing

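The number of members called after 48 h against ad libitum was 1 on the deposited values and 0 after median-ratio scaling, quantile normalization, without mitochondrial and ribosomal protein genes, or with no filter on low values. It ran from 0 to 2 as single libraries were left out, where the number of all genes called ran from 744 to 2448. In telogen it was 1, against 2 after median-ratio scaling and 0 with no filter, and a library left out leaves a single one in its group. In EpiSCs it was 5, and 4 to 6 over the settings that kept all libraries, where all genes called ran from 3682 to 4973. Without either EpiSC library, which leaves a single one, Notch3 fell under the filter. The Hes1 log2 fold change ran from 5.24 to 6.04 as single libraries were left out. With a library left out, the number of members called was at most 7, where at most 5610 of all genes were called (4782 with all libraries). It was 0 in the comparisons of 24 h and ADF with ad libitum under every alternative run, and 0 to 1 at 48 h against 24 h. No called fold change changed sign. Deviations of same-numbered libraries correlated at -0.132 to 0.0482 among fasted and fed HFSCs, against -0.125 to 0.191 for libraries of different numbers. Between EpiSCs and HFSCs the values were 0.0202 to 0.0505 by the numbers of the titles. They were -0.0202 and 0.0344 by those of the descriptions, which number the EpiSC libraries 2 and 3. In the long-term experiment the value was -0.00390. In groups of 2 libraries the deviations mirror each other, so their correlation cannot tell whether replicate numbers pair the libraries. With a replicate block from the titles 6 members were called in EpiSCs, Notch1 being the one added (1.43, adjusted p = 0.0274). With the block from the descriptions, an alternative chosen after seeing the data, 5 were called and Notch1 was not (1.34, adjusted p = 0.0641). No paired analysis was run for telogen, because the numbers 2 and 3 in its column names match no single sample title. With 2 to 3 libraries a group and no counts, differences of the sizes seen for Dll1 and Hes1 after fasting were not resolved from the spread. Over all genes, 354 were called at 24 h against 553 after median-ratio scaling, 689 after quantile normalization, 179 with only the 2 groups compared and 61 with no filter. At 48 h there were 1765, against 2880 with only the 2 groups and 918 with no filter, and in telogen 709, against 4 with no filter. At 48 h against 24 h there were 5, and 0 to 31 over the alternatives (31 with a mean of at least 5 TPM), and after ADF 1, against 284 with the replicate block. Further Notch pathway genes called at 48 h were 4, against 2 after median-ratio scaling or quantile normalization and 14 with only the 2 groups, and in telogen 2, against 0 with no filter. With a library left out, the count of further genes ran from 1 to 10 at 48 h, where that of all genes ran from 744 to 2448. In EpiSCs it was at most 29, where that of all genes was at most 5610. Counts from fits that leave a single library in a group, as all of those in telogen do, are not given.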
